A study of Nematostella vectensis with 47 samples.

Results

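Chromatin accessibility was compared between 25 hpf gastrulae of the sea anemone Nematostella vectensis whose parents had carried morpholinos (F1 MO) and gastrulae grown in the solvent DMSO (F0 DMSO). All 36284 merged peaks of the deposited ATAC-seq table were taken, in 2 F1 MO and 2 F0 DMSO libraries out of 9 ATAC-seq libraries and 47 samples in the series. F1 MO embryos were themselves untreated. They came from 2 lines bred from animals that had been injected with translation-blocking morpholinos, antisense oligonucleotides that stop a messenger RNA from being translated, against DNMT1 and UHRF1 together. F0 DMSO embryos came from gametes pooled over several males and females and were kept in 0.1% DMSO until harvest. Both groups are whole embryos of the Massachussets strain, as the labels spell it. Generation, parentage, exposure to solvent and the morpholino history of the parents all change together between the groups, so their parts cannot be told apart. The samples are separate lines or crosses, 2 per group, so an exact two-sided permutation test of any single value cannot go below p = 0.333.

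DNMT1 is the methyltransferase that copies CpG methylation onto the new DNA strand after replication, and UHRF1 is the cofactor that recruits it to half-methylated sites. In cnidarians and most other invertebrates methylated CpGs lie mainly in the bodies of transcribed genes, while promoters and distal regulatory elements are unmethylated. ATAC-seq uses the Tn5 transposase to insert sequencing adaptors into open chromatin, so the number of insertions in a region measures how accessible it is.

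The peak table sets what can be seen. The 36284 regions were identical, base for base, to the union of the 5 peak lists deposited for F0 embryos (2 DMSO and 3 GSK libraries, GSK being embryos in 5 µM of the DNMT1 inhibitor GSK-3484862). A site open only in F1 embryos therefore has no entry. The F1 MO libraries held 14046962 and 12525960 insertions in peaks, against 31015826 and 33980509 in F0 DMSO. The other libraries of the table were 2 of F1 GSK, from GSK-treated parents, with 11366484 and 19253881 insertions, and 3 of F0 GSK.

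Both F1 MO libraries stood apart from F0 DMSO in the shape of their counts. Counts per peak fell into 2 modes with a trough between them. In F1 MO replicates 1 and 2, 5087 and 5620 peaks held 3 to 9 insertions, 119 and 151 held 30 to 39, and 3118 and 3959 held 80 to 119. Under 30 insertions were found at 8850 and 9978 peaks in F1 MO, against 57 and 39 in F0 DMSO. F1 GSK lay between, with 2721 and 3622 such peaks. The lower mode was absent from F0 DMSO, and 574 and 694 peaks had no insertion in F1 MO while none was empty in F0 DMSO.

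**Figure D1:**
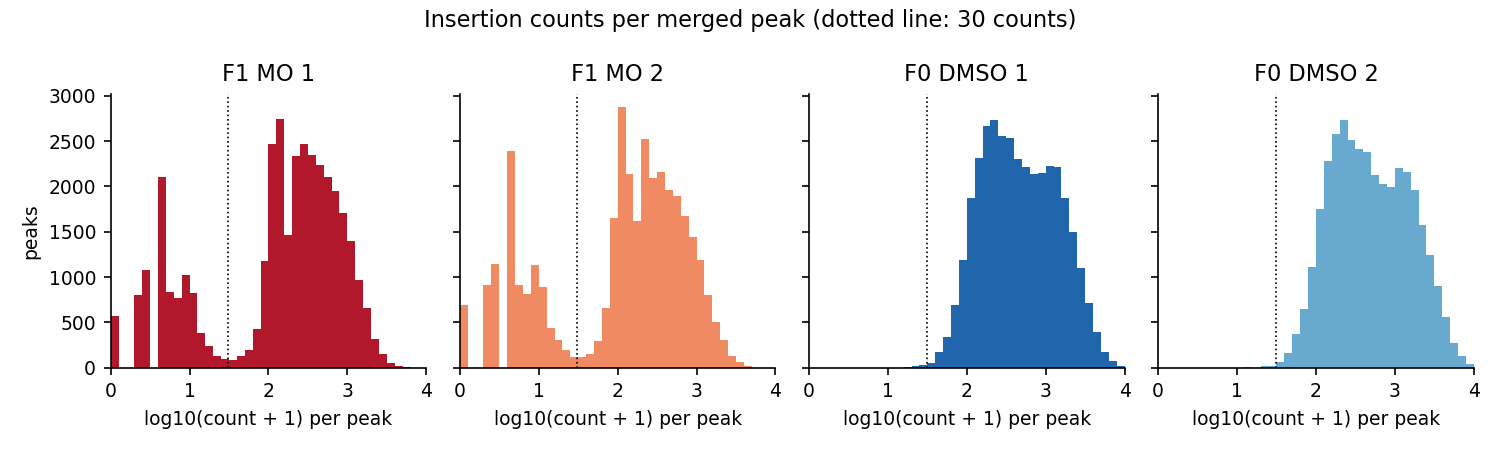
Number of merged peaks (y axis) by insertion count, as log10(count + 1) in bins of 0.1 (x axis), with 1 panel for each F1 MO and F0 DMSO library and a dotted line at 30 counts. F1 MO replicates 1 and 2 have 8850 and 9978 peaks under the line, against 57 and 39 in the F0 DMSO libraries.

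The peaks in the lower mode were weak, narrow and poorly shared. Of all peaks, 4758 (13.1%) were under 30 counts in both F1 MO libraries, 9312 (25.7%) in only 1 of them and 22214 (61.2%) in neither. Peaks low in both had a median of 4 insertions in each F1 MO library, against 142 and 146 in F0 DMSO. F0 DMSO counts scaled to the F1 MO totals had medians of 62.5 and 55.7 there. In F1 GSK the same peaks had medians of 63 and 89. Their median width was 312 bp, against 1109 bp for peaks low in neither library, and 74.5% of them were listed in only 1 of the 5 F0 libraries, against 11.4%. Whether the peak caller's margin, the depth or the embryos put a weak peak in this mode was not tested.

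Part of the lower mode was shared between the F1 MO libraries. Over all peaks, 53.8% of those low in replicate 1 were low in replicate 2, against 19.0% of the others, and the product of the 2 shares would give 2434 peaks low in both where 4758 were seen. Much of this followed peak strength. Among the 14514 peaks of the 2 weakest quintiles of mean F0 DMSO signal, a measure that uses no F1 MO library, replicate 2 was low at 60.4% of peaks low in replicate 1 and at 50.1% of the others. In the same set a peak was low in 50.9% of cases when its neighbour within 2 kb was low and in 48.6% when it was not in replicate 1, and in 60.9% and 55.3% in replicate 2.

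Replicates of F1 MO also differed more from each other at peaks of every strength. In the weakest quintile of mean signal over all 9 libraries the median absolute difference between replicates, on log2(CPM + 0.1), CPM being counts scaled to library size, was 1.74 in F1 MO, 1.51 in F1 GSK and 0.40 in F0 DMSO. In the strongest quintile it was 0.50, 0.32 and 0.11. Only 5 of the 7257 peaks of the strongest quintile were in the lower mode in either F1 MO library, whereas 93.3% of the weakest quintile were. Results below are therefore given for the upper 3 quintiles of mean CPM over all 9 libraries (21770 peaks, mean of at least 10.6 CPM) unless stated. This mean includes the F1 MO libraries, so a peak that is weak in F0 DMSO can enter the set through a high F1 MO signal. The main values are therefore also given for all peaks and for sets of the same size chosen from the F0 GSK or the F0 DMSO libraries alone.

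No single peak passed the threshold in the main test. The quasi-likelihood test of edgeR called 0 peaks higher and 0 lower at a false discovery rate (FDR) under 0.01 (0.0% of 36277 tested in either direction). The smallest adjusted p was 0.145, and 6753 peaks had an unadjusted p under 0.05, of which 2030 were higher and 4723 lower. DESeq2, another count model, called 2241 peaks higher (6.18%) and 4401 lower (12.1%). Without F1 MO replicate 1 edgeR gave 9681 higher and 12500 lower, and without replicate 2 it gave 9153 and 12023. In those fits the spread comes from the F0 DMSO pair alone and the lone F1 MO library is assumed to vary like it. How many peaks were called thus depended on the tool and on the pair of F1 MO libraries, and calls of peaks below are those of DESeq2 alone unless edgeR is named.

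Calls of lower accessibility were mostly the lower mode. Of the 4401 peaks called lower, 4186 were under 30 counts in both F1 MO libraries, and 388 lay in the upper 3 quintiles. Their median log2 fold change was -3.85 and their median width 317 bp. In the upper 3 quintiles the balance turned round, with 1928 peaks called higher (8.86%) and 388 lower (1.78%). With strength taken from F0 DMSO alone these numbers were 1597 and 615. In the strongest quintile 891 were higher (12.3%) and 76 lower (1.05%), and in the 2 weakest 313 were higher (2.16%) and 4013 lower (27.6%). Both F1 MO libraries lay above both F0 DMSO libraries at 6341 peaks of the upper 3 quintiles (29.1%) and below them at 3665 (16.8%). Over all peaks these numbers were 8436 (23.2%) and 8838 (24.4%), in the strongest quintile 2575 (35.5%) and 894 (12.3%), and in the 2 weakest 2095 (14.4%) and 5173 (35.6%). None of the 2241 peaks called higher was in the lower mode in either F1 MO library. This follows almost from the definition of that mode, since only 57 and 39 peaks were under 30 counts in F0 DMSO.

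The median difference in accessibility was larger at peaks with more baseline methylation, by an amount that depended on how weak peaks were left out. Baseline mCG was the share of 5mC calls among valid calls at the CpGs of a peak in 1 Oxford Nanopore library of gastrulae from an untreated cross. A level was available for 35420 peaks, of which 4414 (12.5%) had at least 20% mCG and are called methylated. In the upper 3 quintiles the median log2 fold change of F1 MO over F0 DMSO was 0.15 for the 17976 peaks under 5% mCG, 0.18 for 1938 peaks of 5 to 20% and 0.29 for 927 of 20 to 50%. It was 0.61 for 299 peaks of 50 to 80% and 1.47 for 533 peaks of 80% and over, against 0.18 for all 21770. The last group had medians of 22.6 and 21.2 CPM in F1 MO and of 7.82 and 7.71 CPM in F0 DMSO. In this group 231 peaks were called higher and 10 lower, and the F1 MO libraries lay above both F0 DMSO libraries at 359 peaks and below both at 24. Of peaks under 5% mCG, 1318 were called higher and 323 lower.

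The size of this gradient rested on the choice of peaks. Over all 2098 peaks with at least 80% mCG the median was 0.58, against 0.08 for all 28680 peaks under 5%, and 307 of the 2098 were called higher and 406 lower. At 1339 of these 2098 peaks at least 1 F1 MO library was in the lower mode. In the 2 weakest quintiles alone the 1565 such peaks had a median of 0.27, with 76 called higher and 396 lower, against -0.22 for peaks under 5%. With strength taken from the F0 GSK libraries, which are in neither group, the medians were 1.18 for 606 peaks of 80% and over and 0.11 for peaks under 5%. With strength taken from F0 DMSO they were 0.61 for 216 peaks and 0.10. The more methylated class was higher in each of these sets.

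In the upper 3 quintiles both lines showed the gradient. Relative to the mean of F0 DMSO, on log2(CPM + 0.1), the 533 peaks with 80% mCG or more had a median difference of 1.41 in F1 MO replicate 1 and 1.33 in replicate 2. Peaks under 5% had 0.08 and 0.14. Over all peaks the differences were 0.49 in replicate 1 and 0.04 in replicate 2 for 80% and over, and -0.02 and -0.01 for under 5%, so the gradient nearly vanished in replicate 2. With strength taken from F0 DMSO both lines had it, at 0.64 and 0.65 for 80% and over, against 0.02 and 0.09 for under 5%. Within the strongest quintile the 22 peaks with at least 80% mCG had a median log2 fold change of 1.44, against 0.17 for peaks under 5%. Within the next quintile down the values were 1.73 for 139 peaks and 0.12. In the weakest quintile both medians were negative, at -0.55 for 881 peaks of 80% and over and -1.44 for 5034 peaks under 5%. There 93.3% of peaks were in the lower mode in at least 1 F1 MO library.

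How a peak entered the table moved with its change. Of the 533 peaks with at least 80% mCG, 428 were listed in GSK libraries only and 105 in a DMSO library too. The median log2 fold change was 1.67 for the 428 peaks and 0.54 for the 105. Among peaks under 5% mCG it was 0.57 for the 846 listed in GSK libraries only and 0.14 for the 17130 listed in a DMSO library. A peak listed in GSK libraries only had to be weak in the same DMSO libraries that serve as controls here, so part of each of these values is set by how the table was built. The order by methylation held within both origins: among peaks listed in a DMSO library the medians were 0.14, 0.18, 0.28, 0.45 and 0.54 from the least to the most methylated class. Among the 61 peaks of 80% and over listed in both DMSO libraries the median was 0.41, against 0.12 for the 14843 peaks under 5%. For DMSO-listed peaks with strength taken from F0 GSK the class medians were 0.11, 0.17, 0.27, 0.40 and 0.37. With strength taken from F0 DMSO they were 0.10, 0.17, 0.25, 0.34 and 0.35. In these 2 sets replicate 2 fell from 0.42 to 0.19 and from 0.37 to 0.25 between the last 2 classes. Over all peaks listed in GSK libraries only the medians were 0.10, -0.22, -0.05, 0.25 and 0.64.

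**Figure D2:**
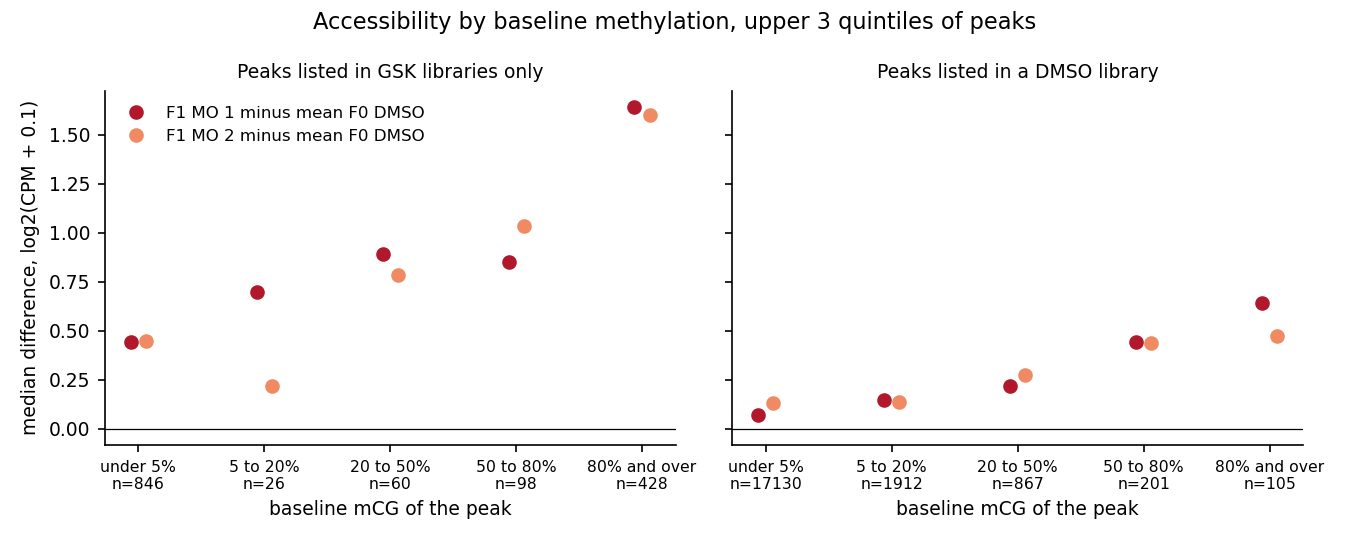
Median difference of each F1 MO library from the mean of the 2 F0 DMSO libraries, in log2(CPM + 0.1) (y axis), by class of baseline mCG (x axis, with the number of peaks), for peaks of the upper 3 quintiles listed in GSK libraries only (left) or in a DMSO library (right). Each point is the median of 1 library over the peaks of a class. Both libraries are highest in the class of 80% and over, at 1.64 and 1.60 on the left and 0.64 and 0.47 on the right.

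Median differences were alike across positions in the genome unless peaks were methylated. Strand and exons were not given in the annotation used, so a peak was placed by the distance of its centre from either end of a gene. In the upper 3 quintiles the median log2 fold change was 0.16 for 8538 peaks within 500 bp of a gene end, 0.20 for 9464 elsewhere in a gene and 0.16 for 3763 outside genes. Without methylated peaks these medians were 0.15, 0.16 and 0.15. Of the 533 peaks with at least 80% mCG, 485 lay in gene bodies with a median of 1.49, 20 near gene ends with 1.40 and 28 outside genes with 0.57. Peaks over a CAGE cluster (a mapped transcription start site) of control embryos had a median of 0.16, and peaks over no cluster 0.19. The 18 methylated peaks over a cluster seen only in F0 GSK embryos had a median of 1.66, with 10 called higher and 1 lower. Of all 1759 methylated peaks of these quintiles, 401 were called higher and 33 lower. Over all strengths the 20 peaks of this kind had a median baseline of 93.6% mCG. They are thus best set beside the 533 peaks of at least 80% mCG, with a median of 1.47, 231 called higher and 10 lower.

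The most methylated peaks differed among themselves with the state of sperm from a demethylated male. The sperm library (1 Oxford Nanopore library) came from a male treated with GSK, not from the morpholino lines, so it marks which sites kept low methylation in another animal and is no measure of the F1 MO embryos. Of the peaks with at least 80% baseline mCG in the upper 3 quintiles, 176 had under 20% in this sperm and a median log2 fold change of 1.87. The 191 peaks with 20 to 50% had 1.64, the 103 with 50 to 80% had 1.14 and the 62 with 80% or more had 0.39. Over all peaks the medians were 0.84, 0.71, 0.31 and 0.29, so the last 2 classes were alike, and in the 2 weakest quintiles they were 0.32, 0.41, 0.09 and 0.23, in no such order. With strength taken from F0 GSK they were 1.63, 1.35, 0.75 and 0.32, and with strength taken from F0 DMSO 1.24, 0.57, 0.34 and 0.12. Among stronger peaks those still methylated in the sperm thus had the smallest median, whichever of these libraries set the strength. In the upper 3 quintiles the order was the same among peaks listed in GSK libraries only (2.05, 1.93, 1.22 and 0.64) and among those listed in a DMSO library (1.08, 0.65, 0.32 and 0.30, with 17 peaks in the last class). At the DMSO-listed peaks F1 MO replicate 1 kept this order relative to mean F0 DMSO (0.97, 0.92, 0.31 and 0.12). Replicate 2 did not (0.89, 0.33, 0.55 and 0.04). Its values there were 0.06, 0.29, 0.46 and -0.01 with strength taken from F0 DMSO. They were 0.06, 0.17, 0.51 and 0.04 with strength taken from F0 GSK.

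F1 GSK embryos, set against the same 2 F0 DMSO libraries, had medians of 1.33, 1.11, 0.60 and 0.29 over these 4 classes. The 2 comparisons share their controls, so the values are only placed side by side. CpG density moved with the sperm classes: the median was 3.49 CpGs per 100 bp in the class under 20% and 1.28 in the class of 80% and over. Within peaks of at least 2 CpGs per 100 bp the medians for F1 MO were 1.92, 1.84, 1.45 and 0.64, the last over 13 peaks. Within sparser peaks they were 1.04, 1.32, 0.69 and 0.32. The part of CpG density in the gradient was not tested further.

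**Figure D3:**
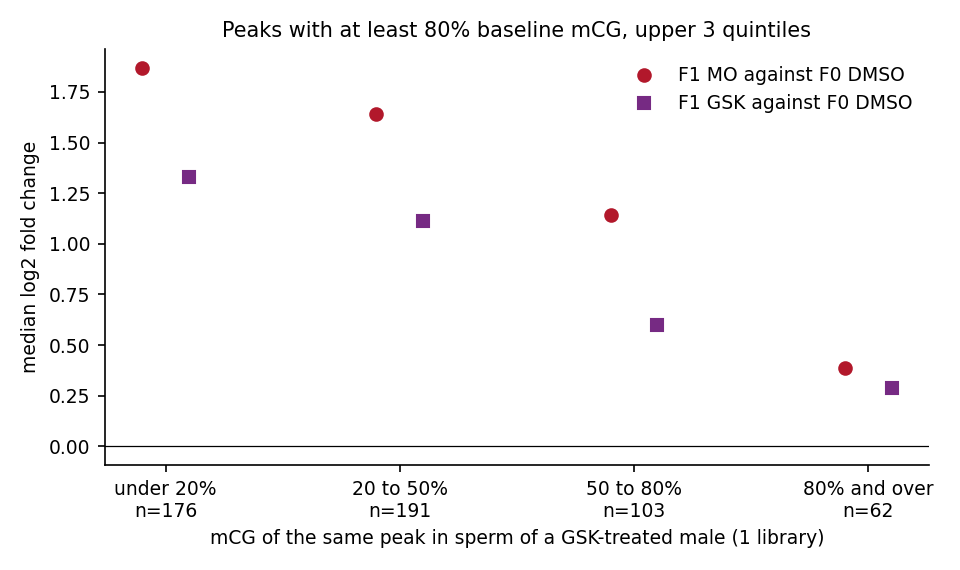
Median log2 fold change (y axis) of F1 MO (circles) and F1 GSK (squares) over the same F0 DMSO libraries for peaks with at least 80% baseline mCG in the upper 3 quintiles, by the mCG of the peak in sperm of a GSK-treated male (x axis, with the number of peaks). F1 MO is at 1.87 in the class under 20% and at 0.39 in the class of 80% and over, and F1 GSK at 1.33 and 0.29.

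Compared directly with F1 GSK, which needs no DMSO library, F1 MO had a higher median at the most methylated peaks of the upper 3 quintiles but not over all peaks. For this contrast edgeR called 0 peaks higher and 0 lower (0.0% of 34715 tested, smallest adjusted p 0.477), and 3559 peaks had an unadjusted p under 0.05. DESeq2 called 522 higher (1.44%) and 745 lower (2.05%). In the upper 3 quintiles the median log2 fold change of F1 MO over F1 GSK was 0.45 for peaks with at least 80% mCG and 0.15 for peaks under 5%. At peaks with at least 80% mCG both F1 MO libraries exceeded both F1 GSK libraries at 181 of 533 peaks and were below both at 57, while over all 21770 peaks this held for 23.5% and 14.9%. Over all peaks the medians were 0.05 for 80% and over, 0.08 for under 5% and 0.07 for all, and in the 2 weakest quintiles -0.23 for 80% and over. With strength taken from F0 GSK they were 0.37 for 80% and over and 0.13 for under 5%, and with strength taken from F0 DMSO 0.14 and 0.13. Within the upper 3 quintiles the excess was seen at peaks listed in GSK libraries only, with a median of 0.52 over the 428 peaks of at least 80% mCG and 0.20 over those under 5%. At peaks listed in a DMSO library the medians were 0.14 and 0.15.

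The 430 methylated peaks that edgeR called more accessible in F0 GSK than in F0 DMSO gastrulae were also followed. Their median log2 fold change was 1.71 in F1 MO, 1.19 in F1 GSK and 1.54 in F0 GSK, all over the same F0 DMSO libraries, the last being the contrast that chose them. The choice favoured peaks low in these F0 DMSO libraries, so part of the F1 values over F0 DMSO is set by it as well. DESeq2 called 215 of the 430 higher in F1 MO and 18 lower, where it called 6.18% of all peaks higher and 12.1% lower. The direct contrast of F1 MO with F1 GSK had a median of 0.49 at the 430 peaks. F1 MO lay above both F1 GSK libraries at 154 of them (35.8%) and below both at 48 (11.2%), against 18.2% and 20.8% of all peaks. The 83 peaks less accessible in F0 GSK, chosen by the same contrast and so with the same limit, had medians of -0.65 in F1 MO, -0.29 in F1 GSK and -0.83 in F0 GSK.

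The 5 peaks with the largest increase among those called by DESeq2 all lay in gene bodies and all had at least 95.3% baseline mCG. The files give gene identifiers without products, so their functions are not stated. The largest was in LOC5521009 (chromosome 1, 15708708 to 15708991 of jaNemVect1.1, 284 bp, 2719 bp from the nearer gene end, 97.0% mCG over 697 calls). It had 20.3 and 73.6 CPM in F1 MO, against 1.04 and 3.19 CPM in F0 DMSO. The log2 fold change was 4.47 ± 1.01 (SE), with an adjusted p of 9.94e-07 in DESeq2 and 0.146 in edgeR. Its F1 MO libraries differed widely from each other, yet both were far above F0 DMSO.

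The peak in LOC116606594 (chromosome 4, 11821708 to 11822034) had 44.1 and 77.3 CPM in F1 MO, against 2.66 and 2.83 CPM in F0 DMSO (log2 fold change 4.46 ± 0.44, DESeq2 adjusted p 4.17e-26, edgeR 0.145). Its mCG was 97.3% over 621 calls at baseline and 8.07% in the sperm library. The peak in LOC5517544 (chromosome 11, 13240301 to 13240532) had 28.7 and 33.15 CPM in F1 MO, against 1.43 and 1.72 CPM in F0 DMSO, a log2 fold change of 4.29 ± 0.53. The groups were wide apart at both. The peak in LOC116619984 (chromosome 15, 3516675 to 3517066) had 36.7 and 42.1 CPM in F1 MO, against 3.85 and 0.638 CPM in F0 DMSO. Here it was the F0 DMSO libraries that disagreed, and the log2 fold change of 4.13 ± 1.03 ranged between 3.33 and 5.93 when 1 library was left out.

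The peak in LOC5508628 (chromosome 6, 9224238 to 9224497) had 17.7 and 16.9 CPM in F1 MO, against 1.19 and 0.832 CPM in F0 DMSO (log2 fold change 4.09 ± 0.80). It held 240 and 191 insertions in F1 MO and only 8 and 4 in F1 GSK, a log2 fold change of F1 MO over F1 GSK of 5.32 (DESeq2 adjusted p 7.84e-05, edgeR 0.477). Of the named peaks, it was the one at which both F1 MO and both F1 GSK libraries lay on opposite sides of F0 DMSO. Among the 50 called peaks with the largest increase (3.22 to 4.47 on the log2 scale), 46 had at least 80% mCG, 47 lay in gene bodies and 2 overlapped a control start site. Of all peaks with a level, 5.92% had at least 80% mCG, and of all peaks 51.1% lay in gene bodies and 22.8% overlapped a control start site. A ranking by fold change favours peaks with little F0 DMSO signal, and the largest increases named here had F0 DMSO means of 1.01 to 2.74 CPM.

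The 5 largest decreases were all peaks with no insertion in either F1 MO library. The strongest lay outside genes on chromosome 8 (5100327 to 5100692, 10.8% mCG) and had 429 and 538 insertions in F0 DMSO. Taking 3 counts per F1 MO library as the upper limit that a count of 0 allows, it was at least 57.0-fold lower in F1 MO. It held 13 and 181 insertions in F1 GSK, so the F1 GSK libraries disagreed there. The peak inside LOC5516654 (chromosome 14, 3818607 to 3819711) had 0 and 0 insertions in F1 MO, against 415 and 321 in F0 DMSO, and was at least 43.8-fold lower. F1 GSK had 100 and 85 insertions at this peak. Expression of LOC5516654 was 13.4 and 13.0 CPM in F1 MO RNA-seq, against 28.0, 25.2 and 17.5 CPM in F0 DMSO (edgeR adjusted p 0.0858). The other 3 lay outside genes on chromosomes 1 and 15 and were at least 36.4-fold to 56.7-fold lower. Such limits cover counting error only. Nanopore coverage was thin at some of these peaks, counted as valid calls at CpGs with at least 10. The LOC5516654 peak had 829 calls at baseline and 0 in the sperm library. The chromosome 15 peak had 0 in both, and the chromosome 1 peak from 14919541 had 11 and 16. The chromosome 8 peak had 436 and 398, and the chromosome 1 peak from 16097671 had 584 and 1332. Whether these stretches were present and mappable in F1 MO was not tested.

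Strong peaks, the upper 10% by mean CPM over the 4 libraries, were less subject to the lower mode. Among these 3629 peaks the median log2 fold change was 0.25, and DESeq2 called 590 higher and 13 lower. It called 6.18% of all peaks higher and 12.1% lower, and 12.3% and 1.05% of the strongest quintile. The mean that defines strong peaks includes both F1 MO libraries. A peak can thus enter this set through high F1 MO signal, and part of the balance of calls is set by that choice. Of the 590, 439 overlapped a control start site and 46 were methylated, among 2739 and 115 such peaks in the whole set. Of the 13 called lower none was methylated and 8 overlapped a control start site.

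The largest increases among strong peaks included 3 methylated gene bodies. The peak in LOC5519703 (chromosome 4, 7376891 to 7378916, 2026 bp) had 181 and 209 CPM in F1 MO, against 17.0 and 17.5 CPM in F0 DMSO. Its log2 fold change of 3.49 ± 0.19 had the smallest DESeq2 adjusted p of all peaks, 1.81e-102, while edgeR gave 0.145. It carried 58 CpGs with 96.7% mCG at baseline over 2511 calls and 5.08% in the sperm library, and it overlapped a control start site. The peak in LOC5502221 (chromosome 4, 3180174 to 3182197) had 105 and 152 CPM in F1 MO, against 14.3 and 13.4 CPM in F0 DMSO, with 94.6% mCG. The peak in LOC5507715 (chromosome 11, 3936467 to 3938821) had 165 and 87.2 CPM in F1 MO, against 20.8 and 18.5 CPM in F0 DMSO, with 92.4% mCG. In all 3 both F1 MO libraries were far above both F0 DMSO libraries, although those of LOC5507715 differed most from each other.

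The other 2 had little methylation at baseline. The peak in LOC5511260 (chromosome 3, 7742292 to 7743123, 0.160% mCG) had 86.8 and 143 CPM in F1 MO, against 26.6 and 25.7 CPM in F0 DMSO. The peak in LOC5510390 (chromosome 5, 15810033 to 15812189, 10.7% mCG) had 94.8 and 174 CPM in F1 MO, against 31.04 and 36.9 CPM in F0 DMSO, a log2 fold change of 1.98 ± 0.37. Expression of LOC5510390 was 17.4 and 23.5 CPM in F1 MO, against 6.28, 4.78 and 7.72 CPM in F0 DMSO (log2 fold change 1.71 ± 0.27, edgeR adjusted p 0.0212). The increases named in this set, which they entered through F1 MO signal, were thus not confined to methylated peaks.

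Strong peaks with lower accessibility were all under 20% mCG, but only 115 of the 3629 strong peaks were methylated, so this does not set them apart. The peak in LOC5497384 (chromosome 2, 6216538 to 6219576, 3039 bp) had 66.3 and 58.3 CPM in F1 MO, against 187 and 188 CPM in F0 DMSO. The log2 fold change was -1.59 ± 0.17, with an adjusted p of 5.03e-19 in DESeq2 and 0.145 in edgeR. F1 GSK held 833 and 8762 insertions there, so its libraries disagreed, and its log2 fold change over F0 DMSO was 0.40. The peak in LOC5517719 (chromosome 10, 14156053 to 14158572) had 39.7 and 43.4 CPM in F1 MO, against 103 and 107 CPM in F0 DMSO. The peak outside genes on chromosome 5 (12818606 to 12821388) had 42.2 and 42.9 CPM in F1 MO, against 112 and 88.3 CPM in F0 DMSO. Both were lower by more than either group's spread. The peaks in LOC5509225 and LOC116619931 had log2 fold changes of -0.96 ± 0.20 and -0.90 ± 0.24.

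**Figure D4:**
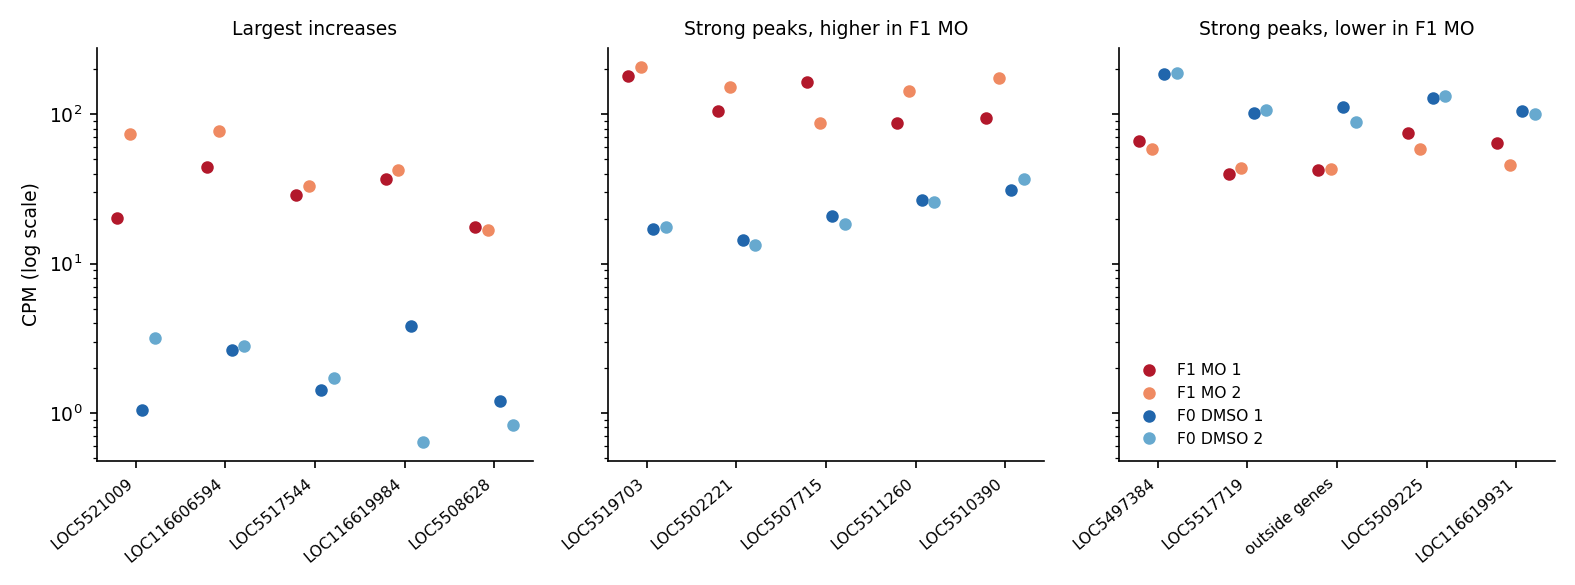
CPM (y axis, log scale) in each F1 MO and F0 DMSO library (1 point per library) at the 5 largest increases called by DESeq2 (left), and at the strong peaks with the largest increases (middle) and decreases (right), named by the gene around them. In every peak shown the 2 F1 MO libraries lie on the same side of both F0 DMSO libraries, as the choice of peaks requires, and LOC5519703 has 181 and 209 CPM in F1 MO against 17.0 and 17.5 CPM in F0 DMSO.

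The 3 strongest peaks lay side by side on chromosome 12 (between 7645299 and 7650806) and took 1.81% and 2.42% of all insertions in F1 MO, against 1.59% and 1.49% in F0 DMSO. The first by strength had 13673 and 19620 CPM in F1 MO, against 11514 and 11036 CPM in F0 DMSO, a log2 fold change of 0.56 ± 0.70 (edgeR adjusted p 0.855). The same CpGs had 2423 valid calls each on average in the Nanopore library, against a median of 36.9 per CpG over all peaks. High coverage in a genomic library as well as in ATAC-seq was thus measured at this site.

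The peak inside LOC5502824 (chromosome 10, 13503468 to 13504395), called more accessible in F0 GSK, had 47.1 and 24.1 CPM in F1 MO, against 10.51 and 7.74 CPM in F0 DMSO. The log2 fold change was 1.97 ± 0.52, with an adjusted p of 4.17e-04 in DESeq2 and 0.157 in edgeR. It had 95.0% mCG at baseline and 63.7% in the sperm library. The gene was expressed at 629 and 536 CPM in F1 MO, against 551, 540 and 561 CPM in F0 DMSO, so the higher accessibility came with a log2 change in expression of 0.08 ± 0.14 (edgeR adjusted p 0.740).

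Gene expression was set beside accessibility with the RNA-seq of the same groups (2 F1 MO and 3 F0 DMSO libraries of 20823699 to 25338288 counts). Of 16750 genes tested with edgeR, 16 were higher (0.0955%) and 79 lower (0.472%) in F1 MO at an FDR under 0.01. These counts rest on few samples: without either F1 MO library no gene was called, and without F0 DMSO replicate 1, 2 or 3 the calls were 1, 0 and 266 higher and 5, 1 and 556 lower. DESeq2 called 570 genes higher (3.48%) and 909 lower (5.54%).

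Most genes with a methylated peak called higher were not called in RNA-seq, but the share called was larger than over all genes. A methylated peak called higher by DESeq2 lay inside 438 genes, of which 436 were tested. Of these, edgeR called 4 higher and 15 lower in RNA-seq (4.36%), against 0.567% of all genes tested and 1.92% (5 higher and 46 lower) of the 2655 tested genes that hold any methylated peak. DESeq2 called 37 of the genes higher and 45 lower (18.7%), against 8.82% of all genes tested and 11.9% of genes with any methylated peak. The median log2 fold change of the 436 genes was -0.0028, and 65.1% of them lay within 0.5 of 0, against 61.9% of all genes tested and 69.5% of genes with any methylated peak. The 15 lower among 19 called genes stand beside 79 lower among 95 called over all genes. Whether the share differs from that of other methylated genes was not tested. All 19 kept their direction when any 1 RNA-seq library was left out, but they were called on these same libraries, so this is no independent support.

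The 4 higher genes were LOC116606594, LOC116614735, LOC5510675 and LOC5500974. LOC116606594, which holds 3 such peaks, had 808 and 887 CPM in F1 MO RNA-seq, against 180, 193 and 221 CPM in F0 DMSO (log2 fold change 2.10 ± 0.15, edgeR adjusted p 0.00316). LOC116614735 had 131 and 144 CPM in F1 MO, against 32.1, 33.2 and 46.3 CPM in F0 DMSO, and its peak on chromosome 8 (3120960 to 3122595, 93.2% mCG) had 74.9 and 93.7 CPM in F1 MO, against 10.3 and 10.6 CPM in F0 DMSO. The groups overlapped in neither assay.

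Among the 15 lower genes the largest change was in LOC5509388, with 7.05 and 5.65 CPM in F1 MO, against 205, 242 and 252 CPM in F0 DMSO (log2 fold change -5.19 ± 0.21, edgeR adjusted p 5.73e-04). Its peak on chromosome 3 (18053680 to 18054007, 98.6% mCG) had 20.05 and 20.8 CPM in F1 MO, against 2.69 and 2.47 CPM in F0 DMSO. LOC5515586 had 1.73 and 1.65 CPM in F1 MO RNA-seq, against 25.8, 29.99 and 30.1 CPM in F0 DMSO, and its peak on chromosome 2 (2900744 to 2901364) had 65.5 and 75.8 CPM in F1 MO, against 7.19 and 7.65 CPM in F0 DMSO. In both genes expression was far lower while a stretch inside the gene was more accessible. LOC5502482 and LOC5516774 were lower by more than 3 on the log2 scale too, at -4.34 ± 0.40 and -3.39 ± 0.33. LOC5521009, the gene with the largest increase in accessibility, had 33.9 and 32.2 CPM in F1 MO, against 102, 91.3 and 77.3 CPM in F0 DMSO. These genes were chosen after their values were seen.

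**Figure D5:**
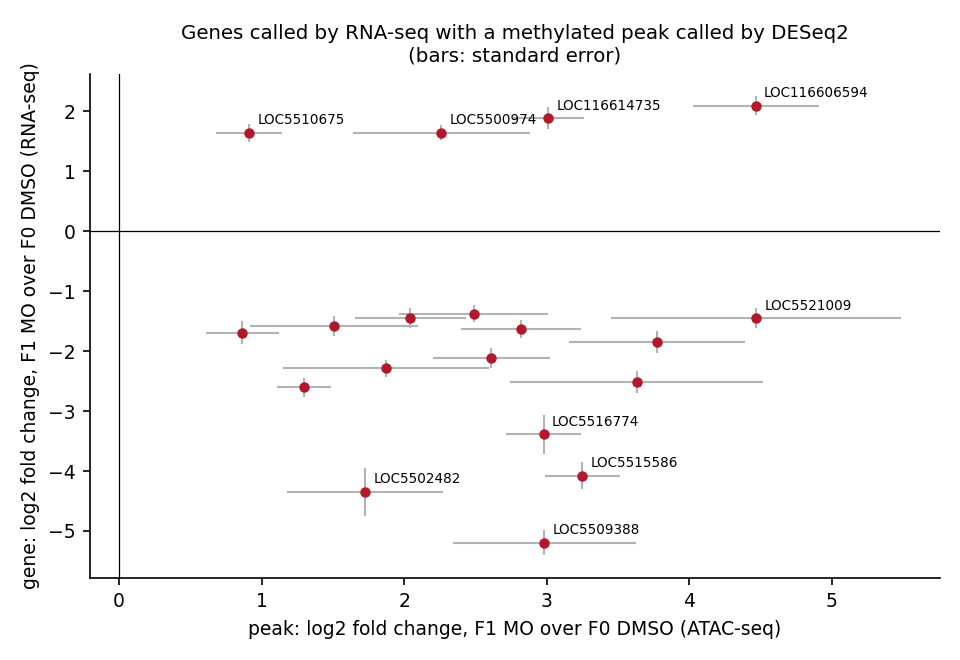
Log2 fold change of gene expression (y axis) against that of the methylated peak inside the gene (x axis, the highest where there are several), F1 MO over F0 DMSO, for the 19 genes called in RNA-seq by edgeR that hold a methylated peak called higher by DESeq2. Points are genes and bars are standard errors. The peaks range between 0.86 and 4.47 by choice, while 15 genes lie below 0 (-5.19 to -1.38) and 4 above (1.64 to 2.10).

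Peaks at the ends of genes lower in RNA-seq were more often below F0 DMSO than above it. Of the 79 genes lower in RNA-seq, 58 had peaks of the upper 3 quintiles, 62 in all, within 500 bp of a gene end, with a median log2 fold change in accessibility of -0.26. The median was 0.16 for the 8277 such peaks of all tested genes. Both F1 MO libraries lay below both F0 DMSO libraries at 24 of the 62 peaks and above them at 9, whereas over the 8277 peaks they lay below at 1392 and above at 2409. DESeq2 called 4 of the 62 lower and 1 higher, and 122 of the 8277 lower and 705 higher. For the 16 genes higher in RNA-seq the 9 such peaks had a median of 0.04, with 1 called higher and none lower. Of the 142 tested genes with a peak called lower at a gene end, 4 were lower in RNA-seq and none was higher (2.82%), against 58 lower and 8 higher of the 9826 tested genes with any peak at a gene end (0.672%). These differences between gene sets were not tested.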

How the data were processed

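The authors mapped ATAC-seq reads with Chromap, which shifts insertion sites and removes duplicates, called peaks with MACS3, merged them with BEDTools and deposited insertion counts per peak from featureCounts. RNA-seq counts per gene were also deposited. The route of RNA-seq counting is not given for certain in the sources used here. The deposited peak lists carry −log10 q values, used only to define stricter peaks (at least 5 in 2 F0 libraries). The deposited CAGE lists carry a normalized signal and were used for position only. The authors deposited Nanopore counts of 5mC and valid calls per CpG. CpGs with at least 10 valid calls and peaks with at least 3 such CpGs were kept.

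Counts were tested with edgeR 4.0.16 (TMM scaling, filterByExpr, quasi-likelihood test, Benjamini-Hochberg adjustment, FDR under 0.01) in R 4.3.3, with only the groups compared in the fit. DESeq2 1.42.0 was an alternative, and the effect of the alternatives tried is given in the closing section. Scripts were tested on simulated data. CPM are TMM-scaled, and fold changes of groups are medians of edgeR estimates. Each library's own values use log2(CPM + 0.1).

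P-values measure the spread between these samples. Members and lists were chosen with earlier results of these data known. Named peaks were, among called peaks of non-overlapping groups, the 5 largest changes each way, the same among strong peaks, the 5 largest among methylated peaks, the 3 strongest peaks and the LOC5502824 peak. Since edgeR called none, DESeq2's calls were used for this rule, a choice made after the values were seen. Gene lists by product name and gene starts could not be applied, since the annotation used pairs identifiers with coordinates only, so gene ends stand for starts and no peak was named for a gene list. No sequence is shown because no genome was used. EM-seq libraries were not analysed here.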

Additional observations from a re-analysis of the deposited data

Results flagged for a closer look

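The peak in LOC5508628 on chromosome 6 stands out because the F1 lines went opposite ways. Both F1 MO libraries lay above both F0 DMSO libraries and both F1 GSK libraries lay below them. The log2 fold change of F1 MO over F1 GSK was 5.32, with an adjusted p of 7.84e-05 in DESeq2 and of 0.477 in edgeR. The peak is 260 bp wide and had 240 and 191 insertions in F1 MO, 8 and 4 in F1 GSK, and 40 and 30 in F0 DMSO. Low counts like those of F1 GSK here are part of the lower mode of the F1 libraries, and their part in this difference was not tested.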

How the results depend on the processing

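Counts of called peaks depended on the tool and on the pair of F1 MO libraries, whereas the median of the most methylated peaks kept its direction. Against F0 DMSO, edgeR called 0 peaks in either direction, DESeq2 called 2241 higher and 4401 lower (methylated: 497 and 764), and edgeR with all groups in one fit called 2 higher, both methylated, and 0 lower. Leaving out 1 library gave 0 to 9681 higher and 0 to 12500 lower (methylated: 0 to 1499 and 0 to 1716). Against F1 GSK, DESeq2 called 522 and 745, and leaving out 1 library gave 0 to 3 higher and 0 to 6 lower. For RNA-seq (16 and 79 genes), DESeq2 called 570 and 909, all groups in one fit 148 and 415, an FDR under 0.05 gave 343 and 628, and leaving out 1 library 0 to 266 and 0 to 556. The median log2 fold change of peaks with at least 80% mCG (1.47) was 1.56 with DESeq2 and with RLE size factors, 1.11 with counts scaled by the fraction in peaks, 1.27 with a loess offset, 0.59 with sequenced reads as library size, 1.37 with stricter peaks, 1.55 over strong peaks only, 1.56 over the upper 2 quintiles, 0.58 over all peaks, 1.18 with strength taken from F0 GSK, 0.61 with strength taken from F0 DMSO, and 1.34 to 1.44 without 1 library. Its alternatives, the libraries that set peak strength, the upper 2 quintiles and the count thresholds were chosen after seeing the data. Sequenced reads as library size moved the median of all peaks by -0.88, and the fraction in peaks by -0.35. The difference between peaks of at least 80% and under 5% mCG ranged between 1.26 and 1.56 over the settings of scaling and peak filter that kept strength as the mean over all 9 libraries, and the medians were 0.58 and 0.08 over all peaks. The first peak on chromosome 12 reversed to -0.44 with the loess offset and to -0.33 with sequenced reads, and the peak from 7645299 to -0.21 with sequenced reads. The cause was not tested. With thresholds of 20 and 60 counts, 4662 and 5073 peaks were low in both F1 MO libraries. Replicate numbers did not pair the samples: deviations of same-numbered samples correlated at 0.0107 (F1 MO and F0 DMSO), 0.0142 (F1 MO and F1 GSK), and 0.267 and -0.27 in RNA-seq. With the replicate block, edgeR called 0 peaks in either direction, 816 genes higher and 1174 lower, and the median of the most methylated peaks was 1.30.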
